A study of Mus musculus with 12 samples.

Results

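The genes that write, copy and remove DNA methylation were followed in irradiated mouse blood progenitors. The set holds 9 genes of the 25078 in the deposited tables: Dnmt1, Dnmt3a, Dnmt3b, Tet1, Tet2, Tet3, Uhrf1, Idh1 and Idh2. They were taken by symbol from the count and RPKM tables, and all 9 passed the filter on low counts that left 14599 genes for testing. RNA was sequenced from Lin- Sca1+ cKit+ (LSK) bone marrow cells, the compartment of mouse stem cells and multipotent progenitors, in 12 libraries. Preleukemic mice carrying Cbfb-MYH11 (CM), a leukemia fusion gene of core binding factor, were set against wild-type (WT) mice. Sorted cells received 3.5 Gy ex vivo (IR) or went through the incubation without it (NIR), and RNA was taken at 24 h. The groups were CM IR, CM NIR, WT IR and WT NIR, with 3 libraries each, and each of the 6 animals gave 1 IR and 1 NIR library. The sources used here do not give age, sex, or the Cre or promoter that drives the fusion. The library names mark WT animals 1 and 3 with a C and animal 2 as WT, and what C stands for is not stated.

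DNA methylation in mammals sits mostly on cytosines that precede a guanine (CpG). DNMT3A and DNMT3B place new marks, and DNMT1, brought to replication forks by UHRF1, copies existing marks to the new strand. The TET dioxygenases oxidise methylcytosine as the first step of its removal, and they need alpha-ketoglutarate, which IDH1 in the cytosol and IDH2 in mitochondria produce. DNMT3A, TET2, IDH1 and IDH2 are recurrently mutated in human myeloid leukemia, and loss of Dnmt3a or Tet2 expands blood stem cells in mice. Gene counts measure transcript abundance and hold no measure of methylation, enzyme activity or mutation.

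The promoter windows of 4 of these genes are shown here, each the 250 bases upstream of a RefSeq transcription start in GRCm38.p6, read 5′ to 3′ on the gene's strand. Dnmt3b and Tet1 are shown because their transcripts varied most between libraries and did so together. In these first sequences capitals mark every CpG, with 21 in the Dnmt3b window at chr2:153649199-153649448 (plus strand) and 15 in the Tet1 window at chr10:62887325-62887574 (minus strand).
Dnmt3b: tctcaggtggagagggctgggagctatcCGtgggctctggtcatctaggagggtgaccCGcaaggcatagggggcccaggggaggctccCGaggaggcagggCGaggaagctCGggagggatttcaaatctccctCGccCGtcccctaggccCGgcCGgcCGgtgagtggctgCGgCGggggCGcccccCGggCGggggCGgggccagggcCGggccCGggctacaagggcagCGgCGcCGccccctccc
Tet1: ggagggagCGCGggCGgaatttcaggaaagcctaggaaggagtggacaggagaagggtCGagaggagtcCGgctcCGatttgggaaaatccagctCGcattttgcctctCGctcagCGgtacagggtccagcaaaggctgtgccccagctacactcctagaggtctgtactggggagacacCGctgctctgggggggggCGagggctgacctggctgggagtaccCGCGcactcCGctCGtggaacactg
Dnmt1 and Uhrf1, the maintenance pair, are shown because theirs were the only member windows that held a match to E2F-type letters, the site class of the S-phase transcription factors. The letters searched were TTTCCCGC, TTTCGCGC, TTTGCCGC and TTTGGCGC on both strands, each of which contains a CpG, and capitals mark the match. The Dnmt1 window, upstream of the third of its 3 starts, lies at chr9:20952624-20952873 (minus strand) and the Uhrf1 window, upstream of the second of its 2 starts, at chr17:56304063-56304312 (plus strand).
Dnmt1: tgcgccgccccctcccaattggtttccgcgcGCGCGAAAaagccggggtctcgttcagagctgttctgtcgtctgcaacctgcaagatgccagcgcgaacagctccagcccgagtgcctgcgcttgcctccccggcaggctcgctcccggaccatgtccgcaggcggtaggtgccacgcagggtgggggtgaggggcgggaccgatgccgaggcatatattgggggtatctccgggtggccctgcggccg
Uhrf1: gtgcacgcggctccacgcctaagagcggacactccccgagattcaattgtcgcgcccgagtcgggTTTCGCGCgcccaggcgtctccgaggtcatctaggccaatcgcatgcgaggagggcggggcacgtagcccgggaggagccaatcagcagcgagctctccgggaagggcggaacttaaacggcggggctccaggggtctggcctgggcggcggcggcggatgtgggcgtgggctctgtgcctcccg
One of these 8-base strings occurred in 1.86% of the 32817 windows of all genes and in 2 of the 15 windows of the 9 members. A match describes letters and not binding. The Tet2 window held 51 CpG, more than 99.9% of all windows, against a median of 6.

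Depth was 68.5 to 110.8 M gene counts a library. The labelled sort was checked against its defining markers: Kit stood at 148 to 284 CPM (counts scaled to TMM library size) and Ly6a, which encodes Sca-1, at 42 to 457 CPM, while the summed T and NK cell markers stayed at 0.825 to 3.49 CPM. Other lists were higher. Mature neutrophil markers summed to 83.6 to 236 CPM in WT libraries and 7.73 to 69.2 CPM in CM libraries. Mast cell and basophil markers summed to 232 to 1690 CPM, so low T and NK values alone do not check the sort. Hbb-bt and Hba-a1, the globin genes of the erythroid list, were at 0 in all 12 libraries. The other 7 genes of that list were detected in every library. The list summed to 575 to 1010 CPM, of which Tfrc had 373 to 780 CPM, so the globin values alone do not check the sort. Cbfb had 177 to 278 CPM in CM libraries and 189 to 238 CPM in WT libraries, and Myh11 had 0.229 to 0.519 CPM in CM libraries and 0.0977 to 0.216 CPM in WT libraries. Gene counts do not separate fusion transcripts, so these values do not check the genotype. Mdm2, a p53 target, rose in WT IR (log2 fold change 0.73 ± 0.09, SE, edgeR adjusted p = 0.0274), and in CM it had 111 to 128 CPM in IR libraries and 84.5 to 104 CPM in NIR libraries. Cdkn1a, the cell cycle inhibitor p21 and another p53 target, had 363 to 447 CPM in WT IR libraries and 144 to 243 CPM in WT NIR libraries, and did not pass (edgeR adjusted p = 0.221). CM IR 1, CM NIR 1 and CM NIR 3, named here by group and animal number, stood apart, at -78.8 to -75 on the first principal component (51.5% of the variance), where the other 9 libraries lay between -8.92 and 45.1. By deviations from the group means, CM NIR 3 followed CM IR 1 (r = 0.69) more closely than CM IR 3, from its own animal (r = 0.13). This correlation thus does not bear out the pair of CM animal 3, and it cannot say which library of the pair is the odd one. A mislabelled library would change what the differences within CM animal 3 and its pairing mean. Values of Dnmt3b, Tet1, Idh1 and Dnmt3l in CM are given with this animal and without it.

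None of the 9 genes was called in any of the 5 comparisons by edgeR's quasi-likelihood test at an adjusted p of 0.05, and 0 of 9 reached an unadjusted p of 0.05 in any. DESeq2 and limma-voom also called 0 of 9 in each. The same rule called 0.116% of all genes for IR over NIR in WT, 0.00685% for IR over NIR in CM, 1.62% for CM over WT without irradiation and 0.664% for CM over WT after irradiation. For IR over NIR these are 17 genes in WT and 1 in CM, and a fit blocked by animal called 163 in WT and 0 in CM, again without a member. An unadjusted p of 0.05 was reached by 4.05%, 1.62%, 15.1% and 11.8% of all genes in these 4 comparisons. For the difference of the IR responses, CM minus WT, edgeR called 0% and 0.726% (106 genes) reached an unadjusted p of 0.05, and DESeq2 and limma-voom called no gene either. The fitted median of the 9 log2 fold changes was -0.002 for IR over NIR in WT and 0.031 in CM, against -0.009 and -0.001 over all genes. For CM over WT it was 0.023 without irradiation and -0.002 after it, against 0.017 and 0.018 over all genes. The 95% intervals differed widely between the 9 genes, as the plot of fitted changes shows.

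**Figure D1:**
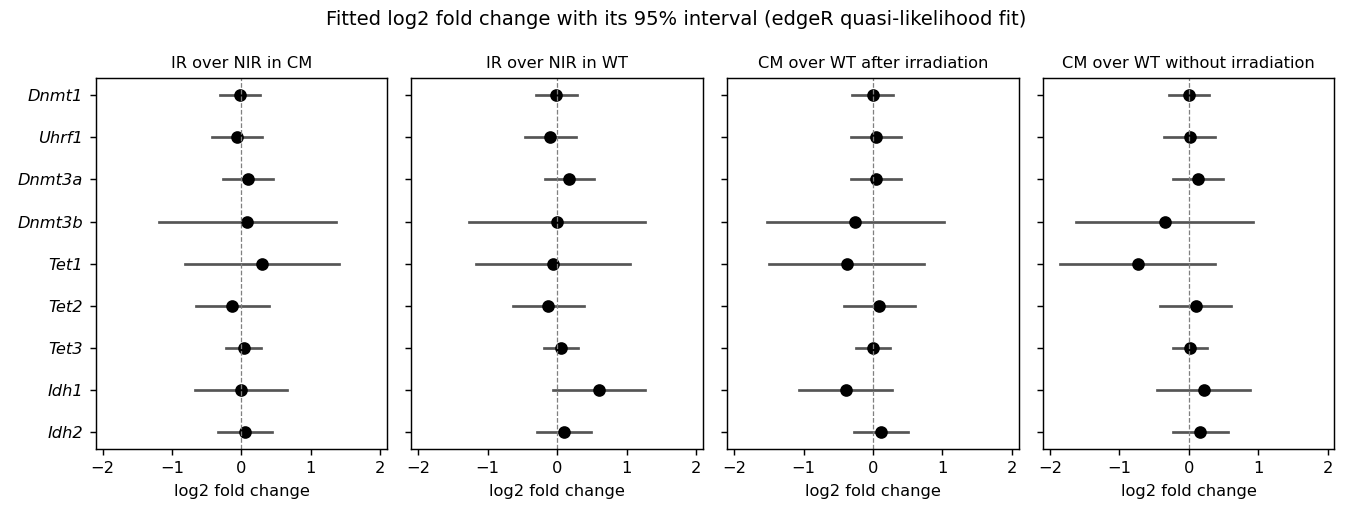
Fitted log2 fold change of each gene (points, horizontal axis) with its 95% interval (lines), from edgeR's quasi-likelihood fit. The panels are, from the left, IR over NIR in CM and in WT, and CM over WT after and without irradiation. The difference of the IR responses is not drawn. All intervals include 0; those of Dnmt3b and Tet1 are the widest, for example -1.62 to 0.93 for Dnmt3b in CM over WT without irradiation, and those of Tet3 the narrowest.

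Per unit length, transcripts of the set fell into 3 tiers, and the deposited RPKM (counts scaled to exon length and library size) were used for this order because genes differ in length. Idh2 stood highest in every group, with group means of 131 to 153 RPKM, and Dnmt1 came next at 101 to 102 RPKM. Uhrf1 averaged 75.8 RPKM in CM IR, 79 in CM NIR, 73.8 in WT IR and 78.6 in WT NIR. Idh1 averaged 68.5, 68.5, 90.3 and 59.2 RPKM in the same groups, above the Uhrf1 mean only in WT IR. There the ranges of these neighbours only just failed to overlap, with the lowest Idh1 and the highest Uhrf1 library both at 82.5 RPKM. In single libraries Idh1 was also above Uhrf1 in CM IR 1, CM IR 3 and CM NIR 3. The middle tier held Tet2, Dnmt3b, Dnmt3a and Tet3, at group means of 12.1 to 16.9 RPKM. In both CM groups, neighbours in this tier overlapped between libraries. Tet1 was lowest, at 1.79 to 2.98 RPKM. Idh2 was above 97.1% to 97.4% of tested genes and Tet1 above 29.5% to 34.7% of them.

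The maintenance genes overlapped between the groups of every comparison. Dnmt1 (chr9:20907206-20959888, minus strand, mm10) had 599, 729 and 610 CPM in CM IR animals 1, 2 and 3, 636, 785 and 543 CPM in CM NIR, 675, 627 and 643 CPM in WT IR and 618, 656 and 690 CPM in WT NIR. Groups overlapped throughout, with CM animal 2 highest and CM NIR 3 lowest. The log2 fold change of IR over NIR was -0.014 ± 0.13 in WT and -0.019 ± 0.13 in CM (SE), with 95% intervals of -0.31 to 0.28 and -0.31 to 0.27. For CM over WT it was -0.00053 ± 0.13 without irradiation and -0.0053 ± 0.13 after it (edgeR adjusted p = 0.999 and 0.993).

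Uhrf1 (chr17:56303337-56323486, plus strand) encodes the reader of hemimethylated CpG that recruits DNMT1. It had 271, 322 and 248 CPM in CM IR, 289, 364 and 229 CPM in CM NIR, 304, 250 and 262 CPM in WT IR and 313, 268 and 292 CPM in WT NIR. Its groups overlapped, and CM animal 2 was again highest. The pooled SD within groups was 0.21 on the log2 scale, larger than in 69.7% of tested genes near its level, and that of Dnmt1 was 0.16, larger than in 46.7%. IR over NIR was -0.1 ± 0.16 in WT and -0.068 ± 0.16 in CM on the log2 scale, and CM over WT was 0.014 ± 0.16 without irradiation and 0.043 ± 0.16 after it (edgeR adjusted p = 0.975 and 0.946). The ratio of Uhrf1 to Dnmt1 RPKM lay between 0.691 and 0.878 in the 12 libraries. It was 0.764 to 0.878 in WT animal 1 and CM animals 1 and 2, and 0.691 to 0.733 in the other animals. These sets of animals are also the series of library numbers, so series and animal cannot be told apart in this split. Maintenance methylation is tied to DNA replication, and the 15 proliferation markers summed to 5950 to 6600 CPM in CM IR, 6470 to 6900 in CM NIR, 5900 to 6600 in WT IR and 6200 to 7210 in WT NIR.

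**Figure D2:**
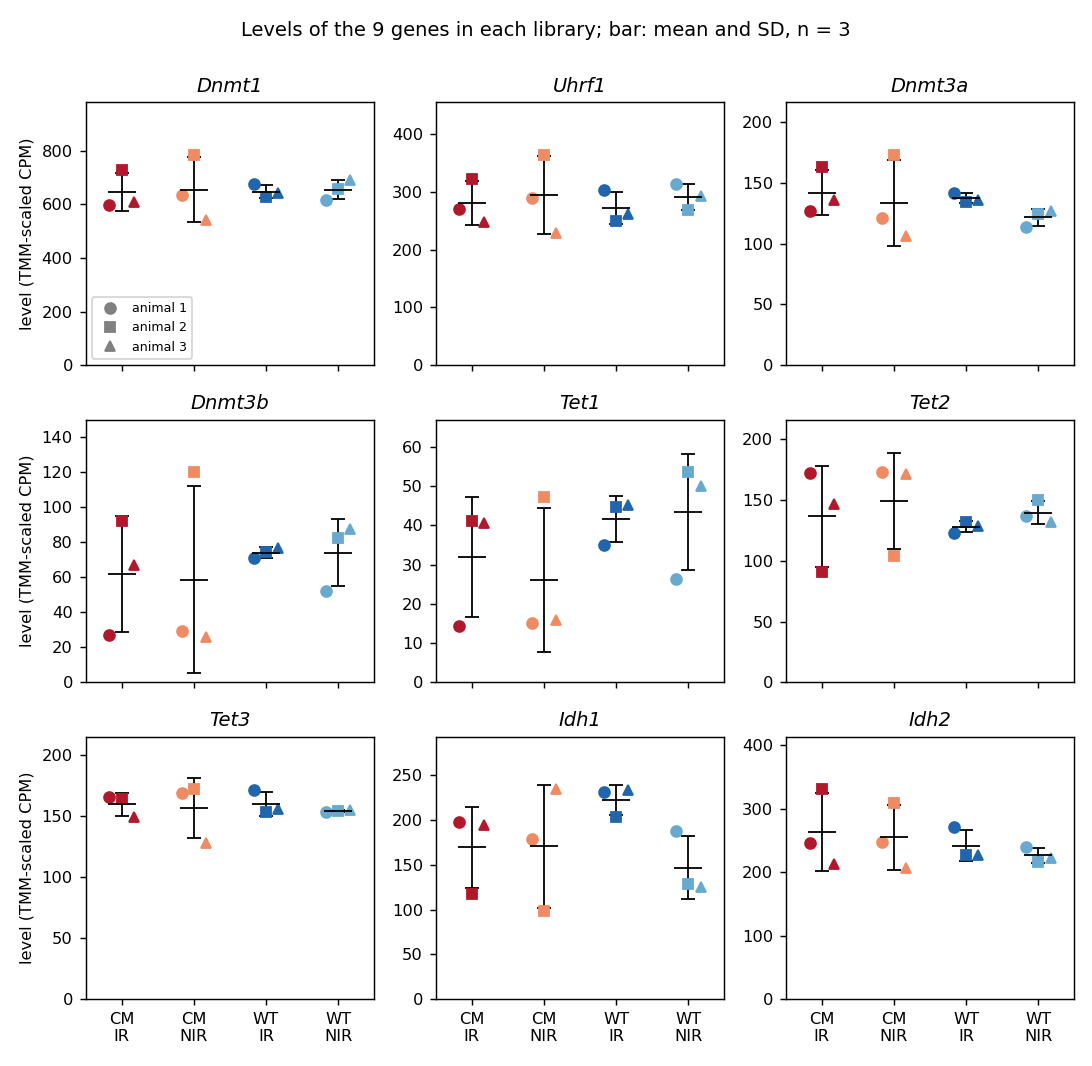
Level of each of the 9 genes in every library (points, TMM-scaled CPM, vertical axis from 0) with the group mean and SD (bars, n = 3), in the order CM IR, CM NIR, WT IR and WT NIR. All genes but Dnmt3a and Idh1 overlap between the groups of every comparison. Dnmt3b and Tet1 spread over 26 to 120 and 14.4 to 53.6 CPM, most widely in CM.

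The de novo genes behaved differently from one another. Dnmt3a (chr12:3806980-3914443, plus strand) had 127, 163 and 136 CPM in CM IR, 121, 173 and 106 CPM in CM NIR, 142, 134 and 136 CPM in WT IR and 114, 124 and 127 CPM in WT NIR. All 3 WT IR libraries lay above all 3 WT NIR libraries, a small gap of 0.17 ± 0.16 on the log2 scale (interval -0.18 to 0.53, edgeR adjusted p = 1). Non-overlap of this kind in either direction held for 14.1% of all genes, 7.47% higher in IR, and for 2 of the 9 members. In CM the IR and NIR libraries overlapped, at 0.095 ± 0.16, and so did those of all 9 members, where 2.55% of all genes did not. CM over WT was 0.13 ± 0.16 without irradiation and 0.05 ± 0.16 after it. Without irradiation 0 of 9 members had CM and WT libraries that did not overlap, against 16% of all genes. The antisense gene Dnmt3aos, which overlaps Dnmt3a, averaged 0.114 CPM over the 12 libraries.

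Dnmt3b (chr2:153649449-153687730, plus strand) had 26.7, 92.3 and 66.8 CPM in CM IR animals 1, 2 and 3 and 29.3, 120 and 26 CPM in CM NIR, against 70.8, 74.5 and 76.7 CPM in WT IR and 52.2, 82.4 and 87.6 CPM in WT NIR. CM IR 1, CM NIR 1 and CM NIR 3 were below every WT library, while CM IR 2 and CM NIR 2 were above every WT library. Its pooled SD within groups was 0.8 on the log2 scale, larger than in 97.6% of the 4370 tested genes within 1 log2 unit of its level; over all genes the median was 0.25. CM over WT was -0.34 ± 0.57 without irradiation and -0.26 ± 0.57 after it (edgeR adjusted p = 0.809 and 0.902). Without CM NIR 2 the first of these was -1.42 (edgeR adjusted p = 0.074). With both libraries of CM animal 3 left out they were 0.0092 and -0.3. IR over NIR was -0.0019 ± 0.57 in WT and 0.084 ± 0.57 in CM, and the CM value became -0.31 without CM animal 3 and 1.16 without CM NIR 2.

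The balance of the de novo pair differed between libraries of CM. The ratio of Dnmt3b to Dnmt3a RPKM was 0.484, 1.3 and 1.13 in CM IR and 0.558, 1.6 and 0.564 in CM NIR, against 1.15, 1.28 and 1.3 in WT IR and 1.05, 1.52 and 1.59 in WT NIR. Dnmt3b transcripts were thus the less abundant of the pair only in CM IR 1, CM NIR 1 and CM NIR 3. The ratio of Dnmt1 to Dnmt3a RPKM, looked at after its values were seen, was 7.42, 7.04 and 7.04 in CM IR and 8.29, 7.15 and 8.05 in CM NIR, and 7.49, 7.35 and 7.45 in WT IR and 8.52, 8.31 and 8.58 in WT NIR. It was lower in the IR library of all 6 animals, by the least in CM animal 2, at 7.04 against 7.15. How many other pairs of genes do the same was not counted, so this direction has no background to stand beside.

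The TET genes differed in how far they varied. Tet1 (chr10:62804570-62887324, minus strand) had 14.4, 41 and 40.6 CPM in CM IR and 15, 47.3 and 15.9 CPM in CM NIR, against 34.9, 44.7 and 45.3 CPM in WT IR and 26.4, 53.6 and 50.1 CPM in WT NIR. The same 3 libraries that were low in Dnmt3b were low in Tet1, at about the level of one another. CM over WT was -0.73 ± 0.5 without irradiation (interval -1.85 to 0.38) and -0.38 ± 0.5 after it (edgeR adjusted p = 0.533 and 0.825). Leaving out CM NIR 2 made the first value -1.49 (edgeR adjusted p = 0.0722), and leaving out CM animal 3 made the values -0.48 and -0.58. IR over NIR was -0.059 ± 0.5 in WT and 0.3 ± 0.5 in CM, where the value in CM was -0.15 without CM animal 3 and 1.05 without CM NIR 2 (edgeR adjusted p = 1 and 0.571).

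Tet2 (chr3:133463677-133544390, minus strand) ran the other way. It had 172, 90.6 and 147 CPM in CM IR and 173, 104 and 171 CPM in CM NIR, against 123, 132 and 129 CPM in WT IR and 137, 150 and 132 CPM in WT NIR. The 3 libraries lowest in Tet1 were the 3 highest in Tet2, and CM animal 2 was the lowest in both conditions. CM over WT was 0.1 ± 0.23 without irradiation and 0.094 ± 0.23 after it (edgeR adjusted p = 0.87 and 0.914). The IR library lay below the NIR library in all 6 animals, by 0.01 to 0.22 on the log2 scale, a direction that 6.58% of all genes shared. The fitted change was -0.13 ± 0.23 in both WT and CM.

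Tet3 (chr6:83362374-83456392, minus strand) had the smallest pooled SD within groups of the 9, 0.14 on the log2 scale, larger than in 34.1% of tested genes near its level. It had 166, 164 and 149 CPM in CM IR, 169, 172 and 128 CPM in CM NIR, 171, 153 and 156 CPM in WT IR and 153, 154 and 155 CPM in WT NIR. Its log2 fold changes were 0.056 ± 0.11 for IR over NIR in WT, 0.031 ± 0.11 in CM, and 0.023 ± 0.11 and -0.0018 ± 0.11 for CM over WT without and after irradiation. Of the summed TET RPKM, Tet1 made up 2.97% to 11.3%, Tet2 36.9% to 60.8% and Tet3 35.5% to 52.4% over the 12 libraries. The Tet1 share was 2.97% to 3.63% in the 3 libraries named above and 6.18% to 11.3% in the other 9.

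**Figure D3:**
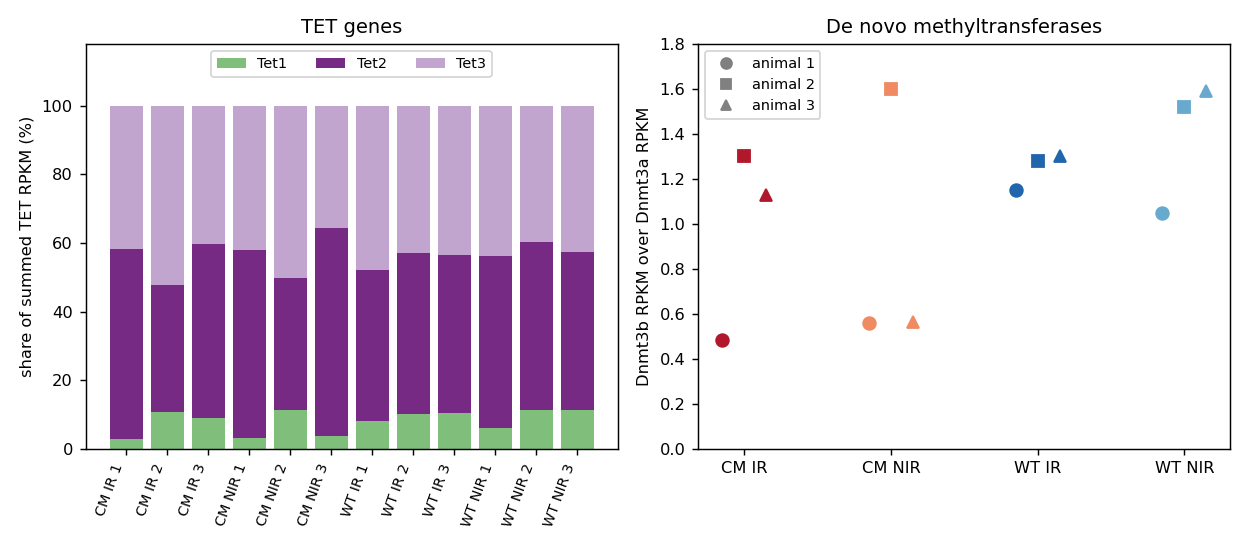
Left, share of each TET gene in the summed TET RPKM of every library (stacked, percent); right, ratio of Dnmt3b to Dnmt3a RPKM per library (points) by group. Tet1 takes 2.97% to 3.63% and the ratio is 0.484 to 0.564 in CM IR 1, CM NIR 1 and CM NIR 3, against 6.18% to 11.3% and 1.05 to 1.6 in the other libraries.

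CM libraries differed among themselves more than WT libraries in all of these genes. The SD of log2 CPM was larger in CM IR than in WT IR and larger in CM NIR than in WT NIR for 9 of 9 members, as it was for 57% of all genes tested. For Dnmt3b it was 0.93 in CM IR and 0.06 in WT IR, and 1.23 in CM NIR and 0.41 in WT NIR. For Tet2 it was 0.48 in CM IR and 0.05 in WT IR, and 0.42 in CM NIR and 0.09 in WT NIR. The median gene had 0.28 in CM IR and 0.14 in WT IR, and 0.26 in CM NIR and 0.19 in WT NIR. The same animals give every member, so the 9 counts are not independent.

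Dnmt3b and Tet1 were each other's nearest member in pattern. Likeness was taken as the root mean square difference between 2 genes in log2 CPM centred on each gene's mean over the 12 libraries. It was 0.204 between Dnmt3b and Tet1, whose own SDs over the libraries were 0.75 and 0.72, and among 9945 candidate genes Tet1 ranked 25th from Dnmt3b and Dnmt3b 28th from Tet1. Nearest to Dnmt3b of all candidates were Fam171a1 (0.101) and Nlgn2 (0.111), a postsynaptic adhesion gene. Nearest to Tet1 were Msi2, an RNA-binding regulator of blood stem cells, and Acvr2b, an activin receptor (0.143 each). The 12 libraries come from 6 animals, and the 3 libraries that stood apart are among them.

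The nearest genes of most other members differed from them by less. They were Khsrp (0.032) and Srrt (0.036) for Dnmt1, Dvl2 (0.05) and Mcm7 (0.052), a replicative helicase subunit, for Uhrf1, and Ppp1r13b (0.055) and Rnf44 (0.057) for Dnmt3a. For Tet2 they were Esyt2 (0.051) and Tmem170b (0.059), and for Tet3 Dync1h1 (0.04) and Mark2 (0.047). Pqlc3 (0.137) and Rogdi (0.146) were nearest to Idh1, and Nop2 (0.041) and Acot7 (0.045) to Idh2. For a gene with little spread a small difference says little, since the SD of Dnmt1 itself was 0.14.

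Mast cell and basophil markers moved against Dnmt3b and Tet1. All 6 were detected in every library, and their summed level was 1430, 315 and 930 CPM in CM IR and 1260, 278 and 1690 CPM in CM NIR, against 395, 249 and 293 CPM in WT IR and 588, 232 and 268 CPM in WT NIR. The 3 libraries low in Dnmt3b and Tet1 had the 3 highest sums of the 12, and WT NIR animal 1, lowest of the WT libraries in both genes, had the highest WT sum. Ly6a moved the same way, with 323, 306 and 457 CPM in those 3 CM libraries and 42 to 144 CPM in the other 9. In bulk RNA, fewer cells of a type and less RNA per cell cannot be told apart, and the part of these markers in the levels of Dnmt3b and Tet1 was not tested.

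**Figure D4:**
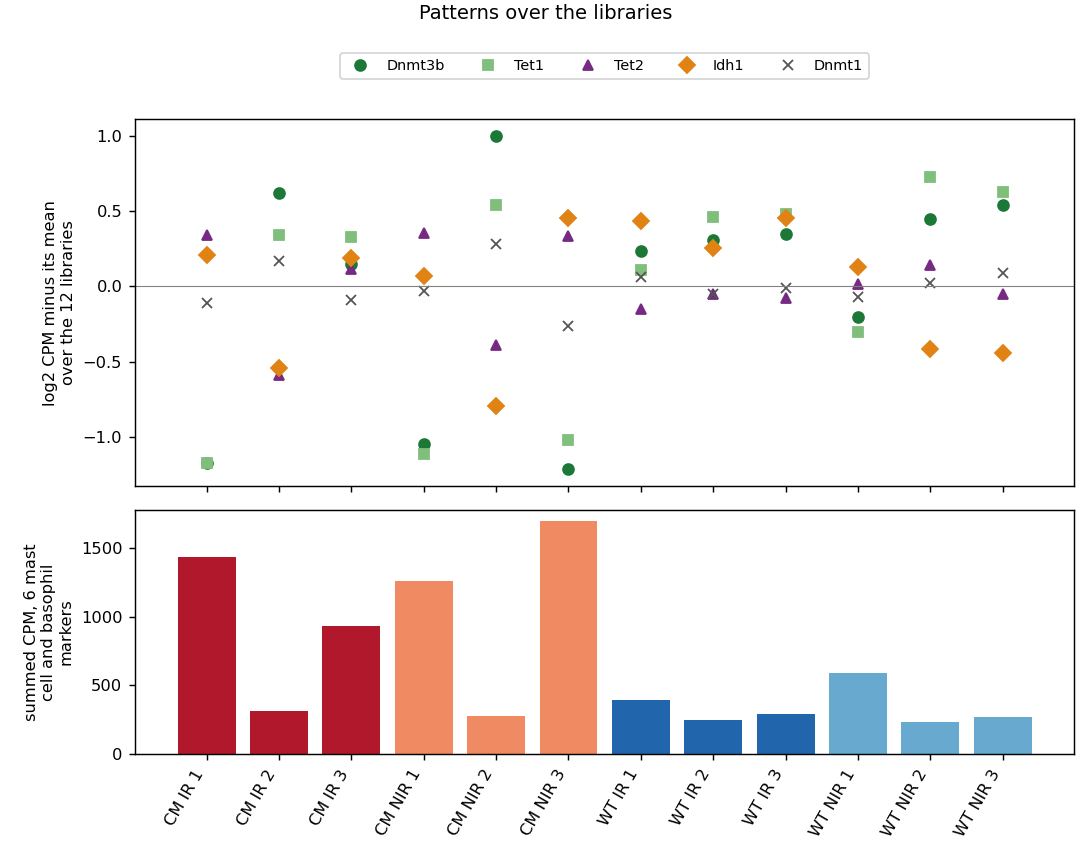
Top, log2 CPM of 5 of the genes minus their mean over the 12 libraries (points); bottom, summed CPM of the 6 mast cell and basophil markers (bars) in the same libraries. Dnmt3b and Tet1 are low in CM IR 1, CM NIR 1 and CM NIR 3, where the markers sum to 1260 to 1690 CPM and Tet2 is high. Dnmt1 varies less, with an SD of 0.14 over the libraries against 0.29 for Tet2 and 0.75 for Dnmt3b. It is lowest in CM NIR 3 and highest in CM NIR 2, at 9.08 and 9.62 log2 CPM before centring.

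Idh1 (chr1:65158616-65186479, minus strand) had the widest gap of the 9 after irradiation of WT cells, and it did not pass the test. It had 231, 203 and 233 CPM in WT IR and 187, 128 and 125 CPM in WT NIR, so every WT IR library lay above every WT NIR library. The log2 fold change was 0.6 ± 0.3 (SE, interval -0.064 to 1.27; unadjusted p = 0.0718, adjusted p = 1 by edgeR). Taken per animal, with the animal as a block, it was 0.63 ± 0.13 and still did not pass (edgeR adjusted p = 0.099); over the alternatives the adjusted p ran from 0.0555 to 1. In CM it had 197, 117 and 194 CPM in IR and 179, 98.3 and 234 CPM in NIR, which overlapped, at -0.008 ± 0.3, or 0.19 without CM animal 3.

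Animal by animal, the IR library differed from the NIR library by 0.14, 0.25 and -0.27 in CM animals 1, 2 and 3 and by 0.31, 0.67 and 0.9 in WT animals on the log2 scale. The ranges of the genotypes did not overlap, as was so for 6.67% of all genes. The means were 0.04 ± 0.28 in CM and 0.62 ± 0.3 in WT (SD, n = 3 each), a difference of -0.58 with a two-sided exact permutation p of 0.1, the smallest that 3 against 3 animals allow. Without CM animal 3 the difference was -0.43. The fitted difference of the responses was -0.61 ± 0.42 (SE, edgeR adjusted p = 1). Library numbers fall into series that hold WT animal 1 with CM animals 1 and 2, and WT animals 2 and 3 with CM animal 3. Because the ranges of the genotypes did not overlap, CM values lie below WT values in any split of the animals. The split by series therefore adds nothing here. After irradiation all 3 CM libraries were below all 3 WT libraries, by -0.39 ± 0.3 (edgeR adjusted p = 0.688), or -0.49 without CM animal 3, the only one of the 9 genes without overlap in that comparison; 17.6% of all genes did not overlap there and 8.36% were lower in CM. Without irradiation CM over WT was 0.22 ± 0.3 and overlapped, and it was -0.077 without CM animal 3. The 10 p53 targets of the marker list summed to 928 to 1340 CPM in CM IR, 491 to 712 in CM NIR, 1540 to 1570 in WT IR and 498 to 655 in WT NIR, and the 7 myeloid progenitor markers to 3350 to 4610, 3350 to 3690, 4740 to 5720 and 3580 to 4320 CPM in the same groups. In both sums, as in Idh1, WT IR lay above WT NIR and CM IR lay below WT IR without overlap, and their part in the level of Idh1 was not tested.

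Idh2 (chr7:80094847-80115350, minus strand) had 247, 331 and 213 CPM in CM IR, 248, 310 and 207 CPM in CM NIR, 271, 228 and 228 CPM in WT IR and 240, 217 and 223 CPM in WT NIR. Groups overlapped, and CM animal 2, lowest in Idh1, was highest in Idh2. The library number series did not overlap. Idh2 had 240 to 331 CPM in WT animal 1 and CM animals 1 and 2, and 207 to 228 CPM in the other animals. CM and WT are spread unevenly over the series, and series and animal cannot be told apart here. How many of all genes split this way was not counted. IR over NIR was 0.1 ± 0.18 in WT and 0.05 ± 0.18 in CM, and CM over WT was 0.17 ± 0.18 without irradiation and 0.12 ± 0.18 after it (edgeR adjusted p = 0.683 and 0.844). The ratio of Idh1 to Idh2 RPKM was 0.247 and 0.221 in the IR and NIR libraries of CM animal 2 and 0.392 to 0.791 in the other 10 libraries.

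**Figure D5:**
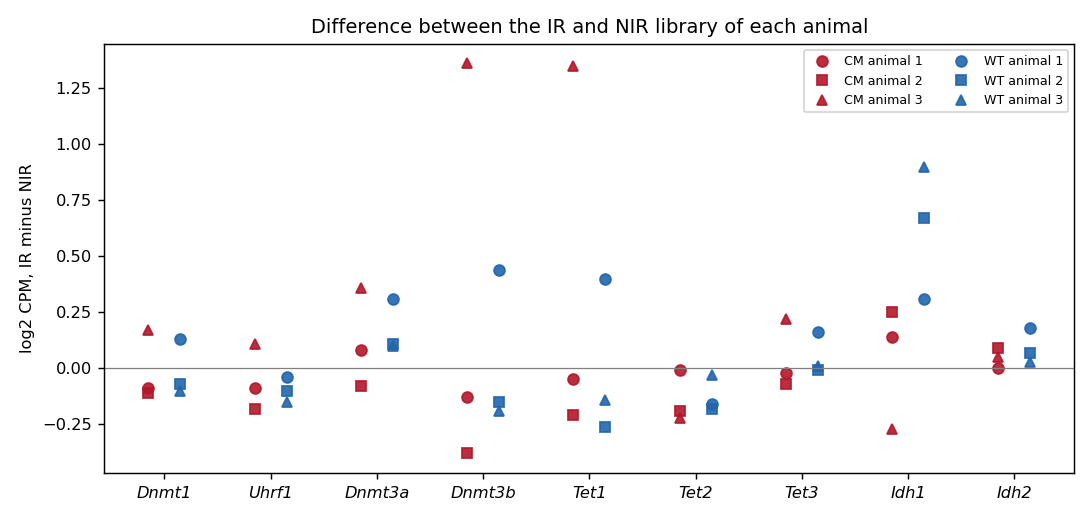
Log2 CPM of the IR library minus that of the NIR library of the same animal (points, vertical axis) for each gene, with CM animals left of WT animals within a gene. Idh1 is at -0.27 to 0.25 in CM and 0.31 to 0.9 in WT, Tet2 is below 0 in all 6 animals, and CM animal 3 stands at 1.36 for Dnmt3b and 1.35 for Tet1.

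The fitted responses of Dnmt3b and Tet1 in CM depended on single libraries, at 1.16 and 1.05 without CM NIR 2 and -0.31 and -0.15 without CM animal 3. By animal, the largest differences were those of CM animal 3, whose pair of libraries is not borne out by their correlation. In that animal the IR library exceeded the NIR library by 1.36 and 1.35 on the log2 scale, whereas in CM animals 1 and 2 the differences were -0.13 and -0.38 for Dnmt3b and -0.05 and -0.21 for Tet1. In WT they were 0.44, -0.15 and -0.19 for Dnmt3b and 0.4, -0.26 and -0.14 for Tet1. Dnmt3a was higher in the IR library of 5 of 6 animals, with CM animal 2 the exception at -0.08. Idh1 and Idh2 were also higher in 5 of 6, and Uhrf1 was lower in 5 of 6. How many of all genes do so was not counted.

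Around these enzymes, 49 further genes of the pathway were listed, of which 47 were tested and Cxxc4 and Dppa3 were too low. edgeR called 0 of 47 in every comparison. At an unadjusted p of 0.05 there were 1 for IR over NIR in WT, 0 in CM, 6 for CM over WT without irradiation, 3 after it and 0 for the difference of the responses. These are 2.13%, 0%, 12.8%, 6.38% and 0% of the 47, where 4.05%, 1.62%, 15.1%, 11.8% and 0.726% of all genes did so. DESeq2 called 3 (Dnmt3l, Gadd45b and Zbtb38) for CM over WT without irradiation, 1 (Dnmt3l) after it and 0 in the rest. Its 6.38% and 2.13% of the 47 stand beside 6.56% and 4.92% of all genes. Limma-voom called 0 in all, and with the animal as a random effect it called 1, Zbtb38 for IR over NIR in WT, where it called 3% of all genes. The median log2 fold change of the 47 was -0.013 and -0.009 for IR over NIR in WT and CM, and -0.015 and -0.009 for CM over WT without and after irradiation.

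Dnmt3l, a catalytically inactive cofactor of DNMT3A and DNMT3B best known from germ cells, had the largest gap among them. It had 15.9, 6.69 and 7.48 CPM in CM IR and 13.9, 4.11 and 15.3 CPM in CM NIR, against 4.04, 3.68 and 2.95 CPM in WT IR and 3.75, 2.51 and 2.1 CPM in WT NIR. Every CM library was above every WT library, by the least at 4.11 CPM in CM NIR 2 against 4.04 CPM in WT IR 1. Within a condition, CM and WT libraries did not overlap, in either direction, for 16% of all genes without irradiation and 17.6% after it. The 3 libraries low in Dnmt3b and Tet1 were the 3 highest in Dnmt3l. CM over WT was 2 ± 0.49 on the log2 scale without irradiation and 1.49 ± 0.48 after it (edgeR adjusted p = 0.0759 and 0.212). The adjusted p ran from 0.00175 with DESeq2 to 0.301 over the alternatives for the first and from 0.0479 to 0.748 for the second, so the call depends on the tool and on single libraries. The first passed in 4 of 22 alternatives and the second in 1 of 22. Leaving out CM animal 3 gave 1.7 and 1.68 (edgeR adjusted p = 0.236 and 0.193). Leaving out CM NIR 2 gave 2.39 for the first and leaving out CM IR 1 gave 2 (edgeR adjusted p = 0.0137 and 0.0499).

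In the base excision and TET partner list, Gadd45b, a stress-induced gene linked to demethylation, had 29.2, 14.8 and 31.4 CPM in CM NIR and 16.7, 10.7 and 11.3 CPM in WT NIR (0.96 ± 0.3, edgeR adjusted p = 0.154). Gadd45a had the smallest p of that list after irradiation, at -0.47 ± 0.19 for CM over WT (adjusted p = 0.34), and Ogt, the glycosyltransferase that binds TET proteins, for IR over NIR, at -0.2 ± 0.11 in WT and -0.15 ± 0.11 in CM (both adjusted p = 1, edgeR). Among maintenance partners it was Hells, a chromatin remodeler needed for methylation, for CM over WT, at -0.38 ± 0.16 and -0.31 ± 0.16 without and after irradiation (edgeR adjusted p = 0.309 and 0.515). For IR over NIR it was Uhrf2 in WT (-0.11 ± 0.11) and Lig1, the DNA ligase of replication, in CM (-0.08 ± 0.11), neither past the test.

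Readers of methylated CpG gave Zbtb38 for IR over NIR in WT (0.2 ± 0.08, edgeR adjusted p = 1, with an adjusted p of 0.104 blocked by animal and 0.0296 in limma-voom with the animal as a random effect) and for CM over WT without irradiation (0.24 ± 0.08, adjusted p = 0.166). They gave Mbd2 for IR over NIR in CM (-0.13 ± 0.15) and Zbtb4 for CM over WT after irradiation (0.54 ± 0.22, edgeR adjusted p = 0.356). In the list with Dnmt3l, the smallest p for IR over NIR in CM was that of Trdmt1, an RNA methyltransferase of the DNMT family (-0.12 ± 0.15), and in WT that of Dnmt3l (0.35 ± 0.48). Among methyl donor genes it was Mtr, methionine synthase, in all 4 of these comparisons, at 0.08 ± 0.1 for IR over NIR in WT and in CM and -0.17 ± 0.1 for CM over WT in both conditions. Around the IDH enzymes it was Ogdh, a subunit of the oxoglutarate dehydrogenase, for IR over NIR (0.2 ± 0.09 in WT and 0.15 ± 0.09 in CM), and Idh3b, a subunit of the mitochondrial isocitrate dehydrogenase that uses NAD, for CM over WT after irradiation (0.12 ± 0.07), none of which passed.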

How the data were processed

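LSK cells of 6 mice were profiled in 12 libraries. Per the labels' protocols, ribosomal RNA was removed and the libraries keep strand. The submitters' processing notes name bcl2fastq 2.18.0.12, TopHat2, HTSeq 0.6.1p1 and mm10. Their settings, strand mode and annotation release were not given in the sources used here, so genes on opposite strands are uncertain where they overlap. The deposited counts are whole numbers per gene and were used for every test. The deposited RPKM values, scaled by the authors to exon length and to 1.01 to 1.02 times the TMM library size, served for levels between genes and for 1 alternative.

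Genes were kept by filterByExpr (minimum count 10, minimum total 15). A group-means model without an animal term was fitted to the 12 libraries with TMM scaling and edgeR 4.0.16 quasi-likelihood tests (R 4.3.3; biological coefficient of variation 0.29), with Benjamini-Hochberg adjustment over 14599 genes at 0.05. Log2 CPM used a prior count of 2. Likeness was taken over genes of at least 5 mean CPM, predicted genes left out. At 68.5 to 110.8 M counts per library, counting error adds little to the members' spread. No pair of libraries was a duplicate (smallest chi-square per degree of freedom 14.7). The fit was tested on simulated counts.

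The labels give the IR and NIR libraries of an animal 1 number. Deviations from group means correlated within animals at 0.67, 0.5 and 0.41 in WT and 0.79, 0.84 and 0.13 in CM. Pairs were formed by the label numbers for every animal, though the 0.13 of CM animal 3 does not bear out its pair. The animal was the replicate block of an alternative fit.

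Alternatives were DESeq2 1.42.0, limma 3.58.1 (voom, with and without the animal as a random effect; log2 of RPKM plus 0.1), other scalings, no filter, library number series and title number as terms, CM animal 3 left out, and each library left out. The members, pathway and marker lists were chosen with earlier results of these data known. All 9 members were named throughout, with the 2 genes nearest in pattern to each, and per pathway list the gene of smallest p in each of the 4 simple comparisons. One gene that this rule would name is withheld and not reported here. Lists were described by counts and medians and not tested. Promoter windows are RefSeq's.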

Additional observations from a re-analysis of the deposited data

How the results depend on the processing

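No setting made a call of any of the 9 genes in any of the 5 comparisons. Of 450 values of the members under alternatives other than leaving out 1 library, 406 kept their sign and 44 reversed, and of 540 with 1 library left out 86 reversed; no result that reversed had a log2 fold change above 0.35 in size. The replicate block by animal changed no call of a member. Another scaling moved the median log2 fold change of all genes by at most 0.047. The order of RPKM levels was the same on TMM-scaled counts per kilobase, and 17 of 18 nearest genes were the same on log2 RPKM, with Zfp36l2 in place of Acvr2b for Tet1. The difference between genotypes in the Idh1 response per animal stayed between -0.74 and -0.43.

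Counts of genes called over the whole table moved more. For IR over NIR in WT, with 17 genes, DESeq2 called 150, limma-voom 31, limma-voom with the animal as a random effect 438, the fit with the animal as replicate block 163, limma on log2 RPKM 30 and the fit without CM animal 3 called 1. For IR over NIR in CM, with 1 gene, DESeq2 called 18, the random effect 4, and the replicate block and the fit without CM animal 3 called 0. For CM over WT without irradiation, with 237 genes, DESeq2 called 958, the random effect 5, the title number as replicate block 854 and the fit without CM animal 3 called 147. After irradiation, with 97 genes, these called 719, 13, 416 and 204, limma-voom 156 and the library series term 14. With 1 library left out the counts ran from 1 to 49 for IR over NIR in WT, 0 to 3 in CM, 4 to 914 for CM over WT without irradiation and 3 to 270 after it. Title numbers are shared by different animals across genotypes, where deviations correlated at -0.37 to 0.53, so they are no pairs. The cause of these shifts was not tested.

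With the animal as replicate block the reversed values were Dnmt3b 0.032 for IR over NIR in WT, Idh1 0.041 for IR over NIR in CM, Dnmt1 0.0052 for the difference of the responses. With CM animal 3 left out the reversed values were Dnmt3a -0.0042, Dnmt3b -0.31, Tet1 -0.15, Tet3 -0.037, Idh1 0.19 for IR over NIR in CM, Dnmt1 0.12, Dnmt3b 0.0092, Tet2 -0.0071, Idh1 -0.077 for CM over WT without irradiation, Dnmt1 0.047, Tet3 0.059 for CM over WT after irradiation, Dnmt3b -0.31, Tet1 -0.1, Tet2 0.058, Uhrf1 -0.03 for the difference of the responses. With the library number series as a term the reversed values were Tet3 -0.046, Uhrf1 -0.1 for CM over WT without irradiation, Uhrf1 -0.055 for CM over WT after irradiation, Dnmt1 0.0036, Tet2 0.00038 for the difference of the responses. With no filter the reversed values were Dnmt3b 0.00035 for IR over NIR in WT. With the title number as replicate block the reversed values were Uhrf1 -0.0031 for CM over WT without irradiation. With upper-quartile scaling the reversed values were Idh1 0.0012 for IR over NIR in CM, Tet3 -0.023, Uhrf1 -0.027 for CM over WT without irradiation, Dnmt1 0.005, Tet2 0.0036 for the difference of the responses. With limma on log2 RPKM the reversed values were Dnmt3b 0.039, Tet1 0.0022 for IR over NIR in WT, Dnmt1 0.00051, Idh1 0.049 for IR over NIR in CM, Uhrf1 -0.015 for CM over WT without irradiation, Dnmt1 0.0078 for the difference of the responses. With limma-voom the reversed values were Dnmt3b 0.029 for IR over NIR in WT, Idh1 0.042 for IR over NIR in CM, Uhrf1 -0.0078 for CM over WT without irradiation, Dnmt1 0.0052 for the difference of the responses. With limma-voom and the animal as a random effect the reversed values were Dnmt3b 0.028 for IR over NIR in WT, Idh1 0.042 for IR over NIR in CM, Uhrf1 -0.0077 for CM over WT without irradiation, Dnmt1 0.0053 for the difference of the responses. With 1 library left out, members with a reversed value are given as the lowest and highest log2 fold change. For IR over NIR in WT the ranges were Dnmt1 -0.054 to 0.026, Dnmt3b -0.2 to 0.14, Tet1 -0.32 to 0.12. For IR over NIR in CM, where Tet1 kept its sign at 0.025 to 1.05, the ranges were Dnmt1 -0.13 to 0.13, Uhrf1 -0.21 to 0.11, Dnmt3a -0.038 to 0.33, Dnmt3b -0.32 to 1.16, Tet2 -0.34 to 0.093, Tet3 -0.091 to 0.11, Idh1 -0.28 to 0.29, Idh2 -0.15 to 0.22. For CM over WT without irradiation the ranges were Dnmt1 -0.15 to 0.12, Uhrf1 -0.17 to 0.17, Dnmt3a -0.1 to 0.27, Dnmt3b -1.42 to 0.0086, Tet2 -0.018 to 0.3, Tet3 -0.052 to 0.15, Idh1 -0.077 to 0.49. For CM over WT after irradiation the ranges were Dnmt1 -0.1 to 0.05, Uhrf1 -0.068 to 0.13, Dnmt3a -0.06 to 0.13, Dnmt3b -0.66 to 0.11, Tet2 -0.11 to 0.32, Tet3 -0.033 to 0.047, Idh2 -0.074 to 0.25. For the difference of the responses the ranges were Dnmt1 -0.12 to 0.15, Uhrf1 -0.12 to 0.21, Dnmt3a -0.21 to 0.15, Dnmt3b -0.32 to 1.17, Tet2 -0.21 to 0.22, Tet3 -0.15 to 0.05, Idh2 -0.25 to 0.12.

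Without an animal term the intervals of Dnmt3b, Tet1 and Idh1 are wide, while those of Dnmt1 and Tet3 stay within 0.31 and 0.3 of 0 in the 4 simple comparisons. The replicate block by animal narrowed the SE of IR over NIR in WT to 0.31 for Dnmt3b, 0.29 for Tet1 and 0.13 for Idh1, and it does not bear on CM over WT, which compares different animals. Transcript levels do not measure protein, activity or methylation. CM animals differed among themselves more than WT animals did, and the 3 libraries that stood apart enter every CM mean.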
